A study of Drosophila melanogaster with 20 samples.

Results

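The 10 genes described here are *srp*, *crq*, *Pxn*, *Col4a1*, *vkg*, *SPARC*, *LanA*, *LanB1*, *LanB2* and *Ppn*. They were chosen by name as genes of hemocytes, the blood cells of the fly, and of the basement membrane, which hemocytes help to build. They are 10 of 17807 genes listed in the count table and 10 of the 10904 genes that passed a filter on low counts and were tested, so that every one of the 10 genes was tested. RNA-seq was carried out on whole *Drosophila melanogaster* embryos of 5 genotypes with 4 libraries each. Null embryos (null) carried null alleles of *Ada2b* and expressed neither Ada2b isoform. PA embryos carried the same alleles with an Ada2b-PA transgene and had only the isoform of the CHAT complex, so that SAGA and ADA were lost. PB embryos carried an Ada2b-PB transgene instead and had only the isoform of SAGA and ADA, so that CHAT was lost. There were 8 control libraries. Of these, 4 came from mutants that carried both the PA and the PB transgene (PA+PB). The other 4 came from *elav-Gal4>GFP* embryos that did not carry the null alleles of *Ada2b* (WT). The transgenes were driven by the regulatory sequences of *Ada2b* itself, *elav-Gal4* and *UAS-GFP* served to pick embryos by GFP, and each library came from a pool of embryos. All embryos were titled as stage 12 to 14. For WT replicate 3, another label gives stage 12 to 15 and so differs from its title. CHAT, SAGA and ADA are complexes that contain Gcn5, an enzyme that acetylates histones, and the comparisons ask which genes depend on which of them.

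A basement membrane is a thin sheet of extracellular matrix that underlies epithelia and wraps muscles and the nerve cord. Its main components are collagen IV, a trimer of the chains encoded by *Col4a1* and *vkg*, and laminin, a trimer of an α chain (*LanA*), a β chain (*LanB1*) and a γ chain (*LanB2*). In the embryo, macrophage-like hemocytes arise in the head mesoderm, spread along the body, engulf dying cells and deposit much of this matrix while they migrate, and the fat body becomes another large source of collagen IV. Hemocytes are not the only cells that express these genes. The GATA factor *srp* is also used in fat body, endoderm and amnioserosa, and laminin is also made by other mesodermal cells and by glia. In whole embryos, fewer cells of a type and less RNA per cell cannot be told apart.

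Depth and replicate spread bear on every value below. Between 1665636 and 35678749 reads per library were counted on genes, and PB replicate 1 and PA replicate 2 (2569525) were the shallowest. Of the genes with at least 100 CPM (counts scaled to the library size, which was normalized by TMM) in the median of the other 19 libraries, 185 of 2068 had no count in PB replicate 1 and 31 of 2056 had none in PA replicate 2, while the 8 null and WT libraries had counts for each such gene. The within-genotype SD of log2 CPM, as the median over all genes tested, was smallest for the null libraries (0.36), and came to 1.13 for PA, 2.59 for PB, 1.19 for PA+PB and 0.64 for WT. *Ada2b* had 30.7 to 47.1 CPM in null embryos and 106 CPM or more in every other library. Floors in CPM cover counting error only, since these reads are not independent molecules, whereas the intervals of fold changes come from the fit and include the spread between libraries.

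Per length of exon, the null libraries, which varied least, gave the following order of levels, each as a mean in CPM per kb (± SD, n = 4). *LanA* came first with 176 ± 36.5. *LanB1* (126 ± 26.2), *Col4a1* (118 ± 37.4) and *LanB2* (112 ± 26.0) followed and differed from one another by less than their SDs. *Ppn* (68.1 ± 7.84) and *vkg* (66.6 ± 18.3) were likewise indistinguishable, and so were *SPARC* (36.5 ± 12.7) and *srp* (30.5 ± 6.81). *crq* (16.1 ± 3.54) and *Pxn* (8.96 ± 1.06) were lowest. The laminin chains, the collagen IV chains and *Ppn* were thus above *srp*, *crq* and *Pxn* in these libraries. The positions of the genes, in build dm6 with the Ensembl gene models, are given where each gene is described.

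**Figure D1:**
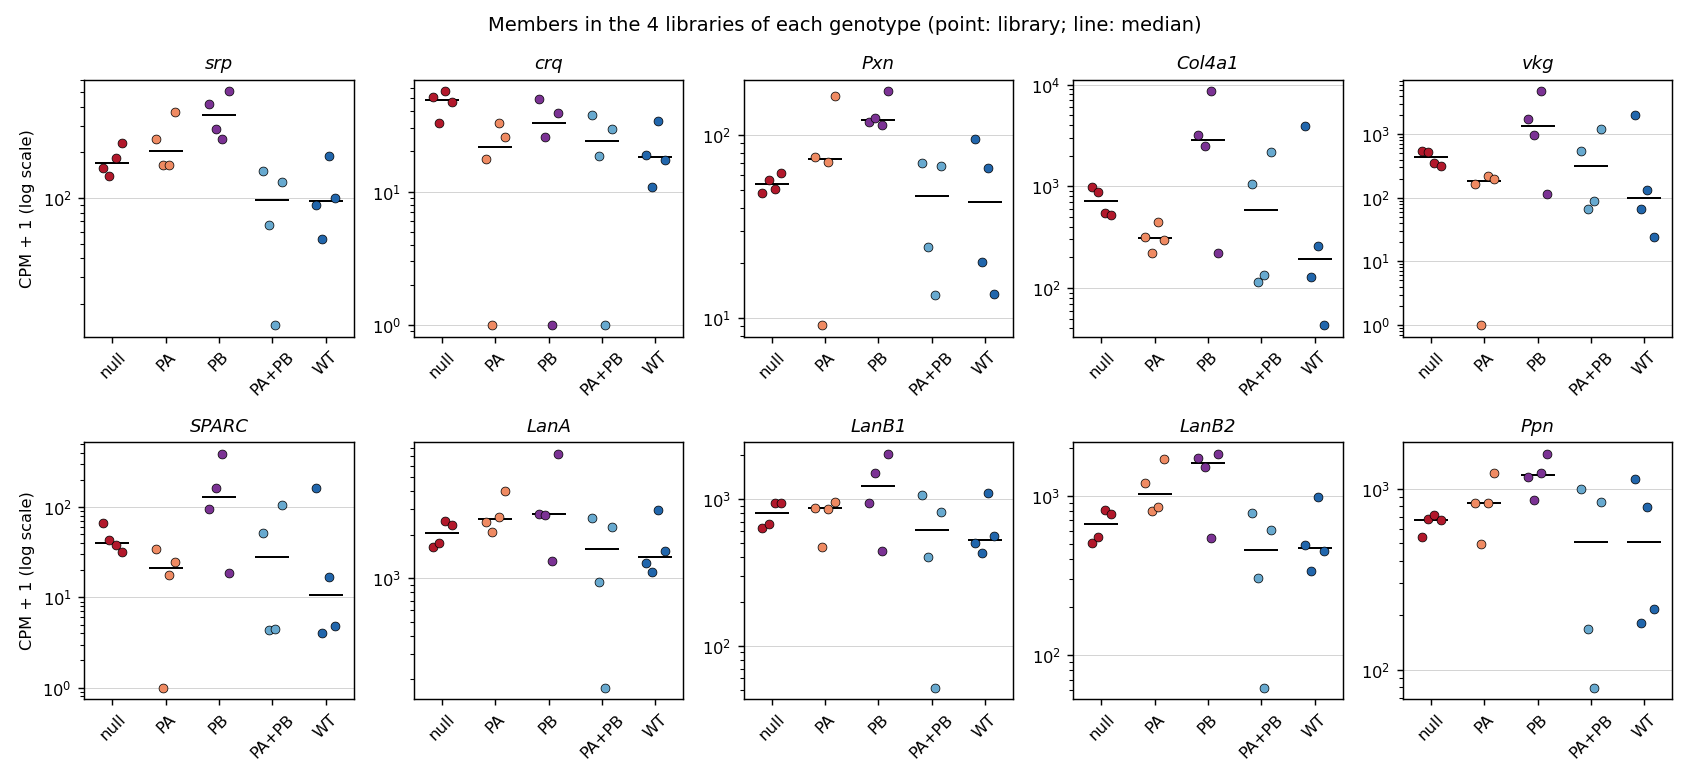
Normalized level of each of the 10 genes in every library (vertical axis, CPM + 1 on a log scale) by genotype (horizontal axis, null, PA, PB, PA+PB and WT), with a point for each library and a line at the median of 4. For *srp* and *Pxn* the 4 PB libraries lie above all 8 control libraries, and for *Col4a1*, *vkg* and *SPARC* the PB, PA+PB and WT libraries are scattered over 17.9-fold or more within a genotype.

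None of the 10 genes was called in null, PA or PB embryos against both controls, which required an FDR under 0.05 and an absolute log2 fold change of at least 0.5 in the same direction against WT and PA+PB (edgeR's quasi-likelihood test, Benjamini-Hochberg adjustment over all genes). The same rule called 2.71% of all genes in the null, 0.0917% in PA and 0.789% in PB. All 295 genes called in the null were lower and 0 were higher. Against single controls, 1 of the 10 genes was called, *srp*, which was higher in PB than in PA+PB, where 6.68% of all genes were called and 2.58% were called higher. No other comparison called any of the 10. The shares of all genes called there were 4.6% for null and 0.11% for PA and 0.871% for PB against WT, 3.4% for null and 0.532% for PA against PA+PB, and 2.3% for PA and 0.147% for PB against the null. At an unadjusted p under 0.05, none of the 10 genes differed between null and WT or between null and PA+PB, where 14.3% and 17.2% of all genes did. In PA, 2 genes differed from WT at that level (background 14.5%) and 3 from PA+PB (20.5%). In PB, 7 differed from WT (22%) and 8 from PA+PB (29.8%), and all of them were higher in PB. Several of the 10 genes varied together over the libraries, so that these counts are not of separate events. DESeq2's Wald test called none in the null, none in PA and 3 in PB (*srp*, *Pxn* and *SPARC*) against both controls. Over all genes it called 636 in the null, 666 in PA and 991 in PB.

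The largest differences from the controls were therefore seen in PB embryos, which lacked CHAT. All 10 genes had a positive log2 fold change in PB against WT, with a median of 1.84, against 0.23 over all genes tested. Against PA+PB all 10 were again positive, with a median of 2.11, against 0.22 over all genes. Both comparisons share the 4 PB libraries. The sign against PA+PB was turned for *Col4a1* (-0.023) and *vkg* (-0.28) without the 2 shallow libraries and for *crq* (-0.067) without PB replicate 1. Only *srp* passed the threshold, and only against PA+PB, and the 95% intervals of all 10 genes, that of *srp* included, were more than 2 log2 units wide. The fit holds 1 factor of unwanted variation, which moved the size of these values. The mean of the changes against WT and PA+PB had a median over the 10 genes of 1.95 in PB (0.23 over all genes) and of 1.51 without the factor (-0.093 over all genes). In PB the fitted sign was that of the difference in mean CPM for all 10 genes against both controls. It was opposite for 12.2% of all genes against WT and 8.74% against PA+PB. In the null it was opposite for 18.2% of all genes against WT and 20.1% against PA+PB, and for 0 and 1 of the 10 genes. In PA it was opposite for 20.35% against WT and 14.7% against PA+PB, and for 1 of the 10 genes in each. Over all genes, the median in the null was -0.22 and became 0.48 without the factor, and that in PA was 0.07 and became -0.41.

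The gene *srp* (FBgn0003507, chromosome 3R, 15986152 to 16004085, plus strand) encodes Serpent, the GATA transcription factor required for hemocyte formation. It had 416, 285, 242 and 503 CPM in PB replicates 1 to 4, against 151, 65.3, 13.6 and 126 CPM in PA+PB replicates 1 to 4 and 88.6, 52.6, 189 and 99.4 CPM in WT replicates 1 to 4. The lowest PB library was above the highest control library, as was the case for 1.67% of all genes tested. The fitted log2 fold change was 2.29 relative to PA+PB (SE 0.60, FDR = 0.0311) and 2.01 relative to WT (SE 0.59, FDR = 0.0909). The call against PA+PB was lost in the fit of the compared genotypes alone (FDR = 0.366) and without PB replicate 2 (FDR = 0.0548), PB replicate 4 (FDR = 0.0577), PA+PB replicate 2 (FDR = 0.103) or PA+PB replicate 3 (FDR = 0.119), although the fold change stayed between 1.68 and 2.60. Of 29 alternatives, 5 called *srp* against both controls. These were the fits with 2 factors (FDR = 0.0325 against WT) or 3 factors (0.0434), DESeq2's Wald test (0.0107) and the fit without PB replicate 1 (0.0252). The last was the fit without the 2 shallow libraries, an alternative chosen after the data were seen (2.29 against PA+PB, FDR = 0.0119, and 2.07 against WT, FDR = 0.0282). A long non-coding RNA on the same strand shares 938 of the 5831 exonic bases of *srp*, so that some reads of *srp* cannot be assigned.

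Embryos that had only Ada2b-PA and null embryos had mean levels of *srp* between those of PB and the controls. There were 243, 163, 165 and 367 CPM in the PA libraries and 157, 139, 184 and 230 CPM in the null libraries. Both ranges overlapped the highest control library, WT replicate 3 with 189 CPM, which is the library whose stage labels differ. On the log2 scale the change of PA was 1.34 relative to WT (SE 0.57, FDR = 0.299) and 1.63 relative to PA+PB (SE 0.58, FDR = 0.139), and null embryos had 0.65 relative to WT (SE 0.52, FDR = 0.707) and 0.93 relative to PA+PB (SE 0.52, FDR = 0.381). These differences did not pass the threshold. The summed CPM of endoderm markers (*GATAe*, *fkh*, *hkb* and *lab*) ran from 276 to 694 in PB and from 28.6 to 405 in the 8 controls, and that of the fat body markers found (*Adh*, *apolpp* and *svp*, with *Adh* at 0 in every library) from 160 to 1361 in PB and from 224 to 2634 in the controls. The part of these tissues in the level of *srp* was not tested.

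*Pxn* (FBgn0011828, chromosome 3L, 2601455 to 2630064, minus strand) encodes Peroxidasin, an enzyme secreted by hemocytes that cross-links collagen IV. It had 116, 123, 112 and 171 CPM in the PB libraries, against 68.8, 23.4, 12.3 and 66.8 CPM in the PA+PB libraries and 93.5, 19.2, 64.6 and 12.6 CPM in the WT libraries. It was the other gene of the 10 whose PB libraries all lay above the controls. The change on the log2 scale was 2.29 relative to PA+PB (SE 0.80, FDR = 0.0745) and 2.22 relative to WT (SE 0.82, FDR = 0.142), and neither passed the threshold. *Pxn* was called against both controls when PB replicate 1 was left out (FDR = 0.0330 against PA+PB and 0.0303 against WT). DESeq2's Wald test also called it against both (FDR = 0.0138 against PA+PB and 0.0275 against WT). The null libraries had 47.0 to 61.1 CPM and the PA libraries 8.18 to 162 CPM, and both ranges overlapped the controls. *CG16986* on the opposite strand and a long non-coding RNA on the same strand share 82 and 151 of its 5955 exonic bases.

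*crq* (FBgn0015924, chromosome 2L, 448254 to 453024, minus strand) encodes Croquemort, a CD36-family receptor with which embryonic macrophages take up dying cells. It had 50.0, 31.8, 55.4 and 46.0 CPM in the null libraries, against 36.7, 17.4, 0 and 28.3 CPM in the PA+PB libraries and 17.9, 9.83, 33.0 and 16.1 CPM in the WT libraries. The 3 highest null libraries were above all 8 controls and the lowest was not, and the test did not call *crq* in the null. It was called in the null against WT in 1 alternative, the fit of the compared genotypes alone (FDR = 0.0393). PA replicates 1 to 4 had 16.6, 0, 31.9 and 24.8 CPM and PB replicates 1 to 4 had 48.4, 24.8, 0 and 38.1 CPM. The 3 libraries at 0 belonged to 3 genotypes, and 3 counts would have given 1.07 CPM in PA replicate 2, 0.715 in PB replicate 3 and 0.366 in PA+PB replicate 3, below every other value of the gene. The neighbouring gene *ex* on the opposite strand shares 448 of the 2848 exonic bases of *crq*, and reads of the 2 genes there cannot be told apart if the libraries do not keep strand, which is not given.

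**Figure D2:**
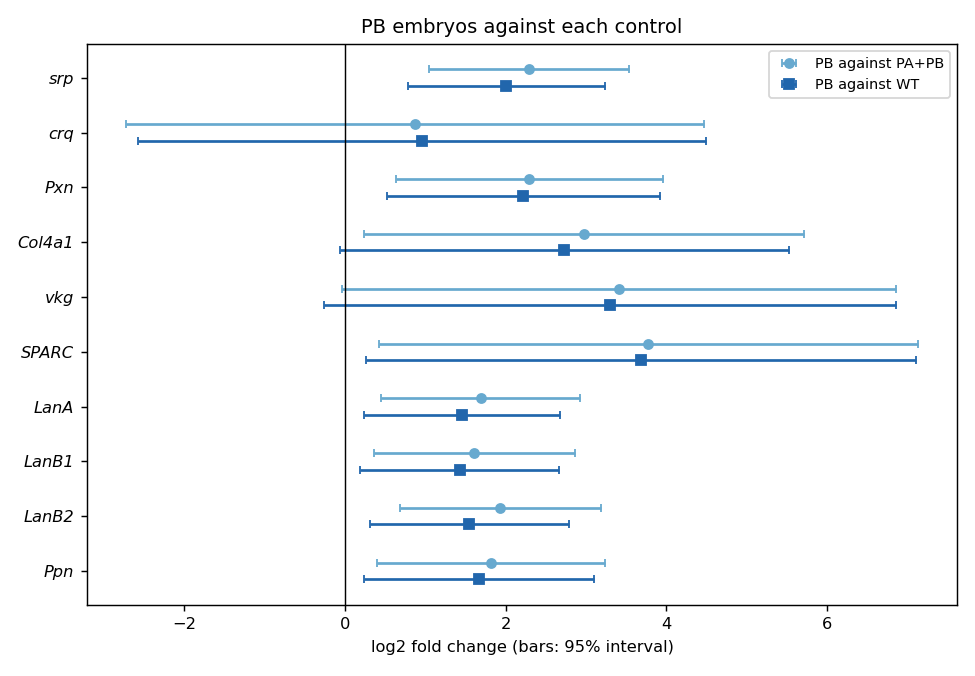
Log2 fold change of the 10 genes in PB embryos against PA+PB (circles) and against WT (squares), with bars for the 95% interval from the fit over all 20 libraries (horizontal axis, log2 units). All point estimates lie to the right of 0, from 0.87 for *crq* to 3.77 for *SPARC*, and the widest bars belong to *crq*, *vkg* and *SPARC*.

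The laminin genes had high counts in every library. *LanA* (FBgn0002526, chromosome 3L, 6203831 to 6218022, minus strand) had 2800.4, 2737, 1309.5 and 7256 CPM in the PB libraries, against 2627, 938, 174 and 2269.8 CPM in the PA+PB libraries and 1271, 1101, 2979.6 and 1533 CPM in the WT libraries. Except in PB replicate 4, *LanA* in PB did not exceed the highest control. The fitted log2 change was 1.69 relative to PA+PB (SE 0.59, FDR = 0.0763) and 1.45 relative to WT (SE 0.59, FDR = 0.166). Null libraries had 1644, 1747, 2499 and 2346 CPM and the PA libraries 2459, 2090.2, 2672 and 4056 CPM, so that the lowest PA library was still above 5 of the 8 controls.

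*LanB1* (FBgn0261800, chromosome 2L, 7811438 to 7820771, plus strand) and *LanB2* (FBgn0267348, chromosome 3L, 9614914 to 9623980, plus strand) varied in the same libraries. *LanB2* had 1718, 1511, 539 and 1827 CPM in the PB libraries, against 773, 303, 61.4 and 607 CPM in the PA+PB libraries and 491, 337, 986 and 450 CPM in the WT libraries. PB replicates 1, 2 and 4 were above all controls and PB replicate 3 was not. The estimated log2 fold change was 1.93 relative to PA+PB (SE 0.60, FDR = 0.0547) and 1.55 relative to WT (SE 0.59, FDR = 0.150). In PA, *LanB2* had 1206, 805, 854 and 1713 CPM, and the log2 fold changes of 1.60 relative to PA+PB (SE 0.58, FDR = 0.142) and 1.21 relative to WT (SE 0.57, FDR = 0.341) did not pass the threshold. *LanB2* was called in PB against PA+PB in 8 alternatives. Among them were those without PB replicate 1 (FDR = 0.0220), PB replicate 3 (FDR = 0.0197) or PA+PB replicate 1 (FDR = 0.0343). In PA against PA+PB it was called without PB replicate 1 (2.40, FDR = 0.0130) and with 3 factors (1.99, FDR = 0.0177). *LanB1* had 438 to 2017 CPM in PB, against 50.9 to 1068 CPM in PA+PB and 429 to 1099 CPM in WT, with a log2 fold change of 1.61 relative to PA+PB (SE 0.60, FDR = 0.0899) and 1.43 relative to WT (SE 0.59, FDR = 0.176).

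*Ppn* (FBgn0003137, chromosome 3R, 28520665 to 28540324, minus strand) encodes Papilin, a proteoglycan-like matrix protein related to ADAMTS proteases and secreted by hemocytes. It had 1161, 864, 1228 and 1554 CPM in the PB libraries, against 991, 168, 78.5 and 843 CPM in the PA+PB libraries and 1136, 181, 793 and 216 CPM in the WT libraries. The controls were split, with 4 libraries between 793 and 1136 CPM and 4 at 216 CPM or lower, and 3 of the PB libraries were above all of them. The log2 fold change was 1.82 relative to PA+PB (SE 0.68, FDR = 0.0911) and 1.67 relative to WT (SE 0.68, FDR = 0.171). The null libraries lay close together, between 542 and 714 CPM.

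The relative amounts of the laminin chains differed between genotypes in their range. Per length of exon, the ratio of *LanB1* to *LanB2* was 0.67 ± 0.19 in PA and 0.82 ± 0.23 in PB (SD, n = 4 each), against 1.15 ± 0.25 in PA+PB and 1.09 ± 0.11 in WT, and it was 1.14 ± 0.037 in the null. All 4 PA libraries were below the 4 WT libraries, with a highest PA value of 0.944 and a lowest WT value of 0.955, but PA+PB replicate 3 had 0.781 and lay within the PA range. The ratio of *LanA* to *LanB2* was 1.28 ± 0.23 in PA and 1.25 ± 0.54 in PB, against 1.65 ± 0.20 in PA+PB and 1.55 ± 0.18 in WT, and the ranges of these genotypes overlapped. These ratios were described without a test. The null libraries lay within the range of PA+PB, with 1.09 to 1.18 for *LanB1* to *LanB2* and 1.54 to 1.64 for *LanA* to *LanB2*.

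**Figure D3:**
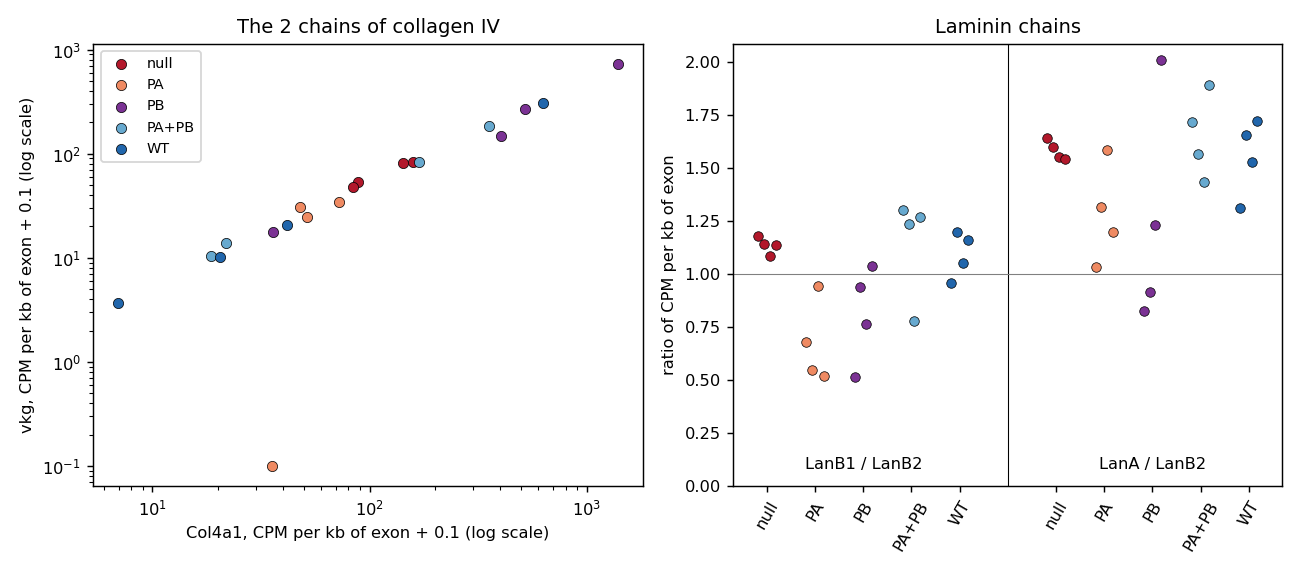
Left, *vkg* against *Col4a1* in the 20 libraries (both axes in CPM per kb of exon + 0.1, log scales), with colours for genotypes. Right, ratios of *LanB1* to *LanB2* and of *LanA* to *LanB2* (vertical axis, ratio of CPM per kb; horizontal axis, genotype), with a point for each library. In the left panel 19 libraries lie along 1 line with a median ratio of 0.522, and PA replicate 2 lies below it with no *vkg* count.

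Collagen IV varied more between replicates than laminin. *Col4a1* (FBgn0000299, chromosome 2L, 5029609 to 5037279, plus strand) had 3204, 2476, 8567 and 222 CPM in PB replicates 1 to 4, against 1043, 114, 134 and 2181 CPM in PA+PB replicates 1 to 4 and 3893, 126, 257 and 42.3 CPM in WT replicates 1 to 4. The null libraries had 973, 874, 544 and 518 CPM and the PA libraries 318, 218, 445 and 293 CPM. Within WT the highest library was 92.0-fold above the lowest, within PB 38.6-fold and within PA+PB 19.2-fold, while the spread was 1.88-fold in the null and 2.04-fold in PA.

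No difference between genotypes was called for *Col4a1* in the fit over all 20 libraries. The fitted log2 fold change of PB was 2.73 relative to WT (SE 1.34, FDR = 0.238) and 2.98 relative to PA+PB (SE 1.32, FDR = 0.138). Null embryos had -0.62 relative to WT (SE 1.04, FDR = 0.913, 95% interval -2.80 to 1.56) and -0.37 relative to PA+PB (SE 1.05, FDR = 0.916, 95% interval -2.55 to 1.81). The direction in the null depended on single control libraries, since the value was 2.29 against WT without WT replicate 1 and 0.63 against PA+PB without PA+PB replicate 4. Neither was called. In PB, *Col4a1* was called against PA+PB by DESeq2's Wald test (3.02, FDR = 0.0324) and without PB replicate 4 (3.85, FDR = 0.0435), and against WT without WT replicate 1 (4.99, FDR = 0.0428).

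*vkg* (FBgn0016075, chromosome 2L, 5012144 to 5028191, minus strand) encodes the other chain, Viking, and lies next to *Col4a1* in the opposite orientation, with 1417 bases between the gene models. It had 1765, 961, 4726 and 116 CPM in PB replicates 1 to 4, against 543, 66.4, 89.5 and 1189.6 CPM in PA+PB replicates 1 to 4 and 2006, 64.9, 133 and 23.3 CPM in WT replicates 1 to 4. The null libraries had 536, 534, 348 and 313 CPM. It followed *Col4a1* closely, and as for *Col4a1* the PB libraries overlapped both controls. In 19 libraries the ratio of *vkg* to *Col4a1* per length of exon was between 0.368 and 0.645 with a median of 0.522, and the SD of the log2 ratio was 0.18, although *Col4a1* itself ranged from 42.3 to 8567 CPM. The null libraries had a ratio of 0.570 ± 0.035 and the PB libraries one of 0.477 ± 0.074, against 0.550 ± 0.062 for PA+PB and 0.498 ± 0.016 for WT (SD, n = 4 each). The exception was PA replicate 2, where *Col4a1* had 614 counts and *vkg* had 0, while 338 counts would be expected at the median count ratio of the other libraries and the floor of 3 counts allows a ratio of up to 0.00489.

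PA replicate 2 lacked counts for *vkg*, *SPARC* and *crq* together. Its *Pxn* level of 8.18 CPM, from 23 counts, was also the lowest of all 20 libraries, whereas *srp* (163 CPM), *LanA* (2090.2 CPM) and *LanB2* (805 CPM) were just below the next PA library (165, 2459 and 854 CPM). *LanB1* (469 CPM) and *Ppn* (492 CPM) were further below the next PA library (856 and 834 CPM). In the other PA libraries *vkg* had 161, 223 and 200 CPM, and *SPARC* 33.6, 16.9 and 23.9 CPM. Any mean of PA for these 3 genes includes a library at 0, and their fitted changes in PA rest in part on that library.

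*SPARC* (FBgn0026562, chromosome 3R, 26869238 to 26871995, minus strand) encodes a collagen-binding glycoprotein that hemocytes need for depositing collagen IV. It had 93.5, 161, 388 and 17.6 CPM in PB replicates 1 to 4, against 50.5, 3.33, 3.42 and 106 CPM in PA+PB replicates 1 to 4 and 163, 3.03, 15.7 and 3.79 CPM in WT replicates 1 to 4. The libraries that were high in *Col4a1* were also high in *SPARC*. On the log2 scale the change of PB was 3.77 relative to PA+PB (SE 1.61, FDR = 0.127) and 3.68 relative to WT (SE 1.64, FDR = 0.198). DESeq2's Wald test called *SPARC* in PB against both controls (FDR = 0.0127 against PA+PB and 0.03015 against WT). Without PB replicate 4 it was called against PA+PB (4.98, FDR = 0.0482). The null libraries had 65.7, 41.9, 36.8 and 30.9 CPM, inside the range of the controls.

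Apart from *crq*, the genes fell in part into sets by the libraries in which they were high. Over 20 libraries the SD of the log2 ratio was 0.34 between *srp* and *LanB2*, 0.29 between *LanA* and *LanB1* and 0.60 between *srp* and *Ppn*. Without PA replicate 2 it was 0.18 between *Col4a1* and *vkg* and 0.61 between *Col4a1* and *SPARC*. Across the sets the values were 2.11 between *Col4a1* and *LanA* and 1.91 between *Col4a1* and *srp*, again without PA replicate 2. The SD of a log2 ratio also grows with the spread of each gene, which was 1.88 within genotypes for *Col4a1* and 0.99 for *LanA*. *Pxn* and *Ppn* varied together, with 0.38 without PA replicate 2. By Pearson's r of log2 CPM over 20 libraries they were not confined to 1 set. *Pxn* had 0.81 with *SPARC* and 0.72 with *srp*, and *Ppn* had 0.65 with *Col4a1* and 0.87 with *srp*. *crq*, with 3 libraries at 0, belonged to no set, with values of 1.85 to 3.33 to the other members without PA replicate 2. These are descriptions over libraries that share sources of variation, and no test was made of them.

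PB replicates 3 and 4 show the contrast. PB replicate 3 had the highest *Col4a1* (8567 CPM) with the lowest *LanA* of the PB libraries (1309.5 CPM), and PB replicate 4 had the lowest *Col4a1* of PB (222 CPM) with the highest *LanA* of all libraries (7256 CPM). In WT, replicate 1 had 3893 CPM of *Col4a1* with 1271 CPM of *LanA*, and replicate 3 had 257 CPM of *Col4a1* with 2979.6 CPM of *LanA*. In PA+PB replicate 3 the laminin genes and *srp* were at their lowest level of all 20 libraries. Per length of exon, *Col4a1* was 12.4 times *LanA* in PB replicate 3 and 0.052 times *LanA* in WT replicate 4.

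**Figure D4:**
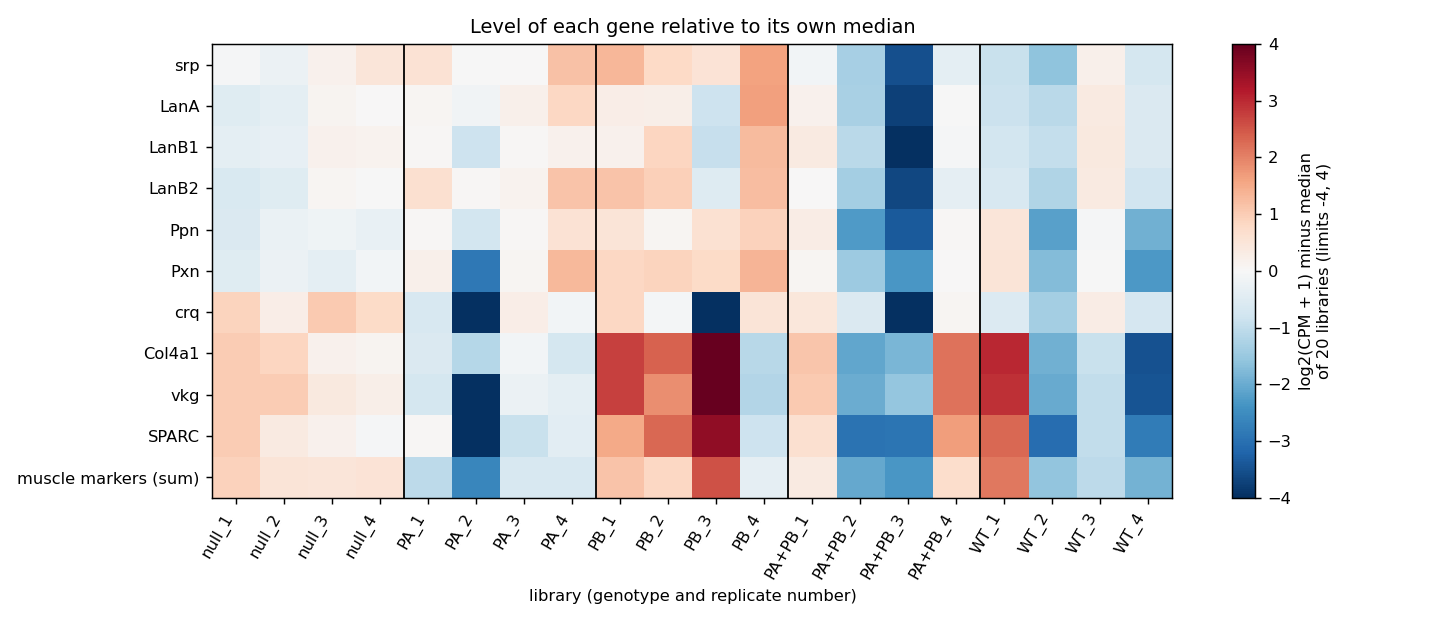
Level of each gene in each library relative to the gene's own median over 20 libraries (colour, log2(CPM + 1) minus the median, limited to -4 and 4), with libraries on the horizontal axis in the order null, PA, PB, PA+PB and WT and the summed CPM of 5 muscle markers in the bottom row. *Col4a1*, *vkg* and *SPARC* are high in the same libraries, among them PB replicate 3 and WT replicate 1, as is the muscle sum, while *srp* and the laminin genes are lowest in PA+PB replicate 3.

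Some markers of muscle and neurons were high in the same libraries as the collagen IV genes. The summed CPM of muscle markers (*Mef2*, *Mhc*, *tin*, *bap* and *Act57B*) was 5799, 4624, 15250 and 2030.4 in PB replicates 1 to 4, against 3358, 626, 516 and 4239.5 in PA+PB replicates 1 to 4 and 11278, 875, 1267 and 702 in WT replicates 1 to 4. The null libraries had 3685 to 4944 and the PA libraries 429 to 1685. The libraries with the most *Col4a1* within PB, PA+PB and WT were also those with the highest muscle sum. This sum was carried by *Mhc* and *Act57B*, which had 10545 and 4540.7 CPM in PB replicate 3, whereas *Mef2* had its lowest PB level there (164 CPM) and *tin* and *bap* had no count. The summed CPM of the neuron markers was highest in the same libraries, with 1340.0 in PB replicate 3, against 654 in PA+PB replicate 4 and 614 in WT replicate 1. The sums over the laminin genes and over *srp*, *crq* and *Pxn* were instead highest in PB replicate 4, PA+PB replicate 1 and WT replicate 3, as were those of the glia, endoderm and amnioserosa markers. *Mhc* encodes the muscle myosin heavy chain, *Act57B* a muscle actin, and *Mef2*, *tin* and *bap* transcription factors of the mesoderm. The part of these tissues in the levels of the genes was not tested.

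The genes most similar to *vkg* over the 20 libraries, by Pearson's r of log2 CPM (prior count of 2) among all non-member genes tested, were *cpx* (r = 0.981), *zormin* (0.976) and *Rbp* (0.971). *cpx* and *Rbp* act in synapses and *zormin* in muscle. For *LanA* they were *lva* (0.958), FBgn0265434 (0.958) and *rno* (0.951), and *LanB1* was closer to it than any of these. For *crq* they were *Shc* (0.979), *CG13344* (0.978) and *Ufsp2* (0.974). The libraries share depth and composition, and *vkg* had no count in 1 of them and *crq* in 3. The same 9 genes were found with a prior count of 0.5, which gives libraries without counts more weight and so cannot test their part. *Col4a1*, which followed *vkg* closely outside PA replicate 2, had r = 0.720 with it over the 20 libraries.

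Other components of the basement membrane were not called against both controls in any genotype. This list held *trol* (perlecan), *Ndg* (nidogen), *wb* (a second laminin α chain), *Mp* (collagen XV/XVIII), *Tig*, *loh* and *Glt*, 7 genes, all tested. The median of their mean log2 fold changes was -0.05 in the null (-0.22 over all genes), -0.07 in PA (0.07) and 2.76 in PB (0.23). The gene with the largest mean change in the null was *loh*, an ADAMTS-like matrix protein, with a mean of -0.78, although its mean level was higher in the null (15.1 CPM) than in PA+PB (10.2 CPM) and WT (12.95 CPM). Without the factor its changes in the null were positive, 0.57 relative to PA+PB and 0.22 relative to WT. The medians of the list without the factor were 0.34 in the null, -1.85 in PA and 1.46 in PB. *Mp*, named after its values were seen, had no count in any PA library, against 1.38 to 122 CPM in PB, 27.0 to 36.7 CPM in the null and 0.786 to 101 CPM in the controls. *Mp* was not called in PA, and all PA libraries were below the controls for 4.93% of all genes tested.

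Genes that modify or export collagen IV held the only calls among the lists examined. Of 8 genes, *Rab10* and *Crag* were called lower in the null against both controls and none was called in PA or PB. Over all genes the shares called were 2.71% in the null, all of them lower, 0.0917% in PA and 0.789% in PB. *Rab10* is a small GTPase and *Crag* its exchange factor in follicle cells, where they direct basement membrane proteins to the basal side. *Crag* had 79.9, 123, 139 and 147 CPM in the null libraries, against 221, 395, 479 and 390 CPM in the PA+PB libraries and 536, 421, 391 and 569 CPM in the WT libraries. All null libraries were below all controls, as for 14% of all genes tested. The change on the log2 scale was -1.99 relative to WT (SE 0.34, FDR = 0.00397) and -1.64 relative to PA+PB (SE 0.35, FDR = 0.0179).

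*Crag* overlapped the controls in embryos with either isoform, with 374 to 682 CPM in PA and 298 to 694 CPM in PB. *Rab10* had 190, 190, 164 and 198 CPM in the null libraries, against 292, 617, 612 and 388 CPM in the PA+PB libraries and 484, 535, 377 and 582 CPM in the WT libraries. The null was again below every control. The fitted log2 change was -1.43 relative to WT (SE 0.32, FDR = 0.0127) and -1.39 relative to PA+PB (SE 0.33, FDR = 0.0280). In PA, *Rab10* had 278 to 412 CPM, and in PB 136 to 333 CPM, which overlapped both the null and the controls. Of 29 alternatives, 24 called *Crag* and 20 called *Rab10* against both controls, and among the losses were those without null replicate 1, 2 or 3 (highest FDR against PA+PB over all alternatives, 0.106 for *Crag* and 0.189 for *Rab10*).

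**Figure D5:**
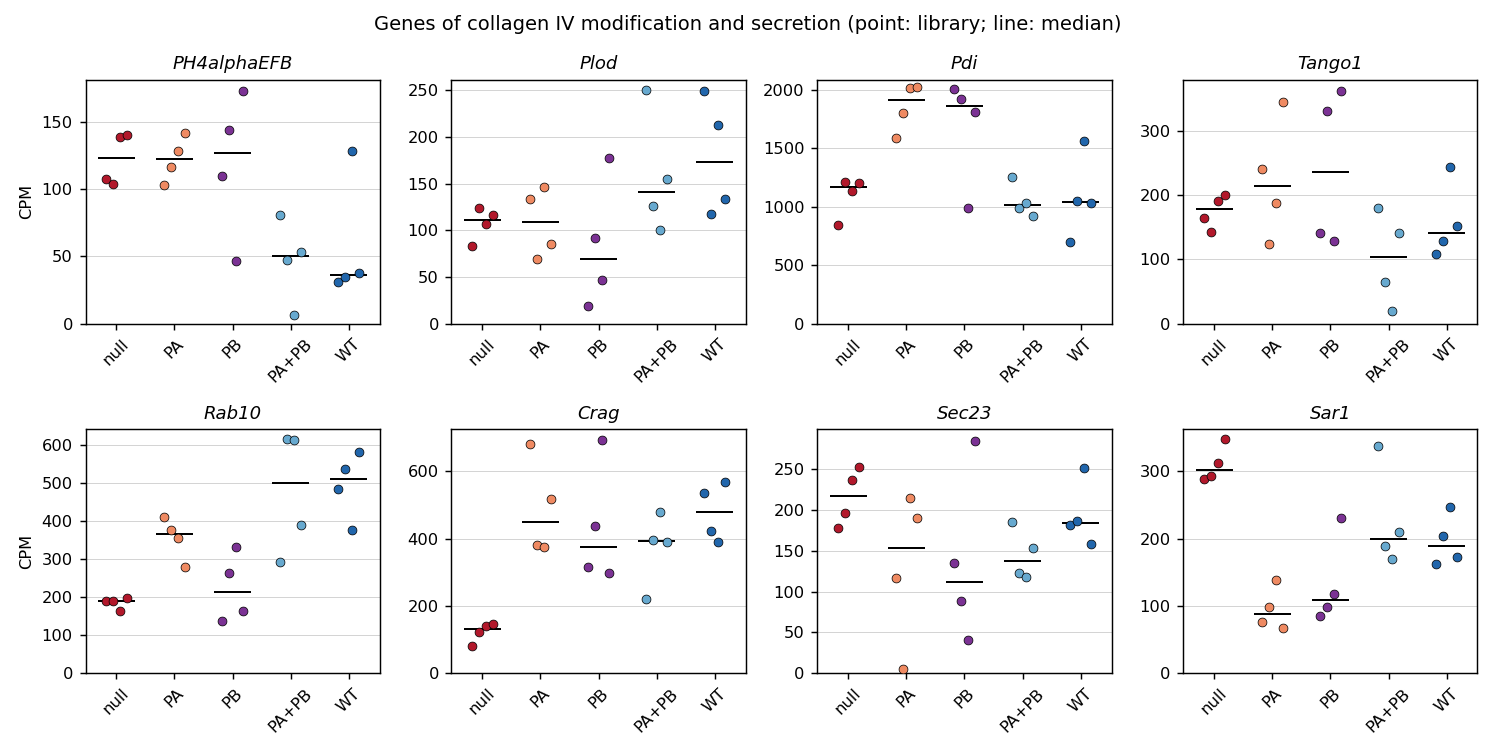
CPM (vertical axis, linear from 0) of 8 genes of collagen IV modification and secretion in every library by genotype (horizontal axis, null, PA, PB, PA+PB and WT), with a line at the median of 4. *Rab10* and *Crag* are lower in all 4 null libraries than in all 8 control libraries.

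The other genes of this list encode the prolyl and lysyl hydroxylases *PH4alphaEFB* and *Plod*, the chaperone *Pdi*, the cargo receptor *Tango1* and the COPII coat proteins *Sec23* and *Sar1*. They were not called, and 2 of them, named after their values were seen, had PA libraries outside the range of the controls. *Pdi* had 1589.6 to 2020.2 CPM in PA, against 694 to 1559 CPM in the controls, and *Sar1* had 67.3 to 138 CPM in PA, against 162 to 338 CPM in the controls. Among all genes tested, all 4 PA libraries were above the controls for 1.16% and below them for 4.93%.

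Receptors and proteases of the matrix were not called either. None of the 7 receptors was called, with a median of their mean log2 fold changes of 0.70 in the null, 0.82 in PA and 0.77 in PB. *Ddr*, a discoidin domain receptor tyrosine kinase whose vertebrate relatives bind collagen, had the largest mean in the null, 2.01, with 9.56 to 14.1 CPM in the null libraries and 0 to 6.85 CPM in the controls. The null libraries lay below the controls for *mys*, a β integrin subunit named after its values were seen, with 212 to 276 CPM in the null and 291 to 426 CPM in the controls. Among all genes tested, the null libraries were above all controls for 10.2% and below them for 14%. Without the factor the medians of the receptors were 0.91 in the null, 0.18 in PA and 1.1035 in PB. None of the 5 genes for matrix proteases and their inhibitor was called, with medians of 0.05 in the null, -1.09 in PA and 1.93 in PB, and the largest mean in the null was that of *stl*, an ADAMTS-like protease, at -1.28, whose mean level of 2.27 CPM in the null lay between those of PA+PB (2.96 CPM) and WT (1.54 CPM).

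Of 16 other hemocyte genes, 15 were tested and none was called. The median of their mean log2 fold changes was 0.66 in the null, 1.08 in PA and 1.58 in PB, against -0.22, 0.07 and 0.23 over all genes, and without the factor it was 0.94 in the null, -0.63 in PA and 1.06 in PB, so that the direction in PA depended on the factor. Levels differed widely within the list. *He*, the gene that was not tested, had counts in WT replicate 1 alone (0.200 CPM), and *NimC1* and *eater* had at most 3.34 and 3.58 CPM. *Hml*, which encodes Hemolectin and was named after its values were seen, had 15.98 to 46.8 CPM in the null, 0 to 0.845 CPM in PA and 0 to 58.6 CPM in PB, against 0 to 23.9 CPM in the controls. The summed CPM of the list was 907 to 1019 in the null, 433 to 734 in PA and 513 to 1486 in PB, against 94.6 to 1001 in PA+PB and 323 to 970 in WT.

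Within this list the null libraries were above all controls for 3 genes and the PB libraries for 1, all named after their values were seen. *NimC4*, a phagocytosis receptor also called simu, had 221, 216, 214 and 203 CPM in the null libraries and 4.15 to 105 CPM in the controls. *gcm*, a transcription factor of glia and hemocytes, had 58.5 to 75.8 CPM in the null and 0 to 50.7 CPM in the controls, and *Pvr*, the PDGF/VEGF receptor on which embryonic hemocytes depend, had 145 to 168 CPM in the null and 0 to 140 CPM in the controls. *drpr*, an engulfment receptor, had 327, 196, 151 and 211 CPM in the PB libraries and 29.8 to 143 CPM in the controls. All null libraries were above the controls for 10.2% of all genes tested, and all PB libraries for 1.67%. The largest mean log2 fold change of the list in the null was that of *gcm2* (-2.21), whose libraries included 0 counts in PA, PB and PA+PB and whose mean level was higher in the null (8.37 CPM) than in PA+PB (4.33 CPM) and WT (5.65 CPM). Without the factor its changes in the null were 0.96 relative to PA+PB and 0.57 relative to WT.

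Markers of other tissues held no call against both controls in any genotype. This covered 2 tested markers of the fat body, 5 of muscle, 4 of glia, 4 of endoderm, 4 of the amnioserosa and 4 of neurons. The genes with the largest mean log2 fold change in the null were *svp* (0.84) for the fat body, *bap* (1.30) for muscle, *moody* (1.04) for glia, *fkh* (0.76) for endoderm, *Doc3* (1.72) for the amnioserosa and *brp* (0.68) for neurons. In PB the median over the neuron markers was 3.39 and that over the muscle markers 1.85, against 2.15 over *srp*, *crq* and *Pxn*. Without the factor these medians were 1.02, 1.29 and 1.53.

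No difference between the controls was resolved for these genes. Between PA+PB and WT, none of the 10 genes was called (0.0183% of all genes), and none had an unadjusted p under 0.05, against 3.7% of all genes. The median log2 fold change was -0.17 (0.05 over all genes), and the intervals of single genes were between 2.15 and 5.64 log2 units wide. Between PA and PB embryos none of the 10 was called (0.00917% of all genes). All 10 had lower fitted values in PA, and *Col4a1*, *vkg* and *SPARC* had an unadjusted p under 0.05, against 21.4% of all genes. Of these 3, *vkg* and *SPARC* had no count in PA replicate 2.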

How the data were processed

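The authors trimmed reads with Trimmomatic, mapped them with HISAT2 to dm6 and counted them per gene with HTSeq (0.11.1) at default settings. The deposited values are these raw counts, without normalization. The kit was Ovation RNA-seq System V2, and whether the libraries keep strand is not given in the sources used here. The header of the table stands 1 field off the values, and names were assigned in order. Symbols and positions come from Ensembl release 115, in which 17710 of 17807 gene IDs were found.

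The fit was made with edgeR (4.0.16) under R (4.3.3). The 138 rRNA genes and the 5 summary values of htseq-count were left out, low counts were filtered with filterByExpr, libraries were normalized by TMM, and all 20 libraries entered 1 quasi-likelihood fit. As the authors normalized by replicates, 1 factor of unwanted variation, estimated after RUVs from deviations of replicates, was a covariate. A gene was called at FDR under 0.05 and an absolute log2 fold change of at least 0.5. The SE is the absolute fold change divided by the square root of F. CPM use TMM library sizes, and a floor of 3 counts was 0.0984 to 1.40 CPM. The fit was tested on simulated counts. Where samples share a number across genotypes, deviations correlated from -0.46 to 0.479 over 40 pairs, so that numbers were not taken as pairs. Replicates are labelled as such, and p-values measure the spread between these pools.

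The 10 genes and all lists were chosen with earlier results of these data known. Named beyond the 10 are called genes of each list, or the gene of largest mean change in the null, and the 3 genes most similar to *vkg*, *crq* and *LanA*. Genes named otherwise are marked. Alternatives were other normalizations, filters, numbers of factors, tests (DESeq2 1.42.0), subsets of genotypes, a replicate block and each library left out.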

Additional observations from a re-analysis of the deposited data

Results flagged for a closer look

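In WT replicate 1, *Col4a1* had 3893 CPM and the next WT library had 257 CPM, *vkg* had 2006 CPM and the next had 133 CPM, and *SPARC* had 163 CPM and the next had 15.7 CPM. In each case the gap to the nearest library was a larger share of the whole range of the 4 libraries than the 95% limit of Dixon's test for 4 values. The 10 genes in 5 genotypes gave 50 such groups, of which 3 passed the limit, and chance alone flags about 1 in 20, or 2.5 groups. That number is for separate groups, whereas these 3 share 1 library and their genes varied together.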

How the results depend on the processing

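No alternative that was run called any of the 10 genes in null or PA embryos against both controls. In PB, where none was called, 1 was called with 2 factors, 1 with 3 factors, 3 with DESeq2's Wald test, 1 without the 2 shallow libraries (PA replicate 2 and PB replicate 1), and 0 to 2 with each library left out in turn. The count of 1 for PB against PA+PB became 2 without the filter, 4 with 2 factors and 4 with 3 factors. With the Wald test that count was 8, all but *crq* and *LanB1*. It was 0 with the compared genotypes alone, 3 without the shallow libraries, and 0 to 4 with each library left out. The count of 0 for PB against WT became 1 with 2 or 3 factors, 3 with the Wald test, 1 without the shallow libraries and 0 to 2 with each library left out. Likewise 3 factors gave 4 for PA against PA+PB, 3 for PA against null and 1 for PB against null, the Wald test 3 for PA against PB, and the compared genotypes alone 1 for null against WT. Leaving out single libraries gave 0 to 3 for PA against PA+PB, 0 to 1 for PA against null and 0 to 1 for PA against PB. The share of all genes called was not computed for single comparisons in the alternatives. Those counts therefore have no background and cannot be read as a result about the 10 genes.

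The counts over all genes called against both controls, 295 in the null, 10 in PA and 86 in PB, moved as follows. DESeq2's size factors gave 153 in the null. Without the filter there were 61 in the null. Without a factor there were 18 in PA and 130 in PB. With 2 factors there were 490, 27 and 431, in the order null, PA and PB, and 3 factors gave 138 in PA and 229 in PB. The Wald test gave 636, 666 and 991, the compared genotypes alone 781, 52 and 14, and the fit without the shallow libraries 949, 164 and 780. With each library left out the ranges were 28 to 457, 4 to 140 and 16 to 619. The replicate block with the factor gave 232, 5 and 53 and changed no call of the 10 genes. The numbers do not pair the samples, and 4 of 20 libraries correlated best with their own number.

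Of the fold changes given, some changed sign and none of these was called. *Col4a1* in the null against WT was 0.30 with 2 factors, 0.46 with the replicate block, 0.30 without the shallow libraries and -1.02 to 2.29 with each library left out, and against PA+PB it was -0.72 to 0.63. In PB, *Col4a1* against PA+PB was -0.023 and *vkg* -0.28 without the shallow libraries, *vkg* was -0.64 with 3 factors, and *crq* was -0.057 against WT and -0.28 against PA+PB with 3 factors, -0.22 against WT with the compared genotypes alone, and down to -0.067 against PA+PB (highest 1.85) without PB replicate 1. Over 29 alternatives, *srp* alone kept its sign in the null against WT and against PA+PB, and 9 genes against WT and 7 against PA+PB kept theirs in PB. The alternative without the shallow libraries was chosen after the data were seen. The causes were not tested.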
